A study of Mus musculus with 11 samples.

Results

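The cytosolic ribosomal protein genes were examined in RNA bound to tagged ribosomes of hippocampal astrocytes from female mice. The set comprised 82 genes of the 39017 in the count table. It held every protein-coding gene of the GENCODE M21 annotation named Rpl or Rps with a number, the stalk genes Rplp0, Rplp1 and Rplp2, and Rpsa. Of these, 50 carry large subunit names and 32 small subunit names. Pseudogenes, S6 kinases and the l1 paralogs were left out. The rule used gene names and no measured value, but it was set with earlier results of these data known.

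The groups were compared at midlife, 12 to 14 months of age. The ERβ cKO (sham) group had 4 mice, which carried 2 floxed copies of the estrogen receptor gene Esr2 and had undergone sham surgery. The WT (GDX) group had 4 mice with the wild type Esr2 gene whose ovaries had been removed when they were young adults. The WT (sham) group had 3 mice, also wild type for Esr2, with sham surgery. All mice, controls included, carried Cre under the mouse Gfap promoter (line 77.6) and the RiboTag allele. In that allele Cre removes the last exon of Rpl22 and brings in a copy with an HA tag, so that an antibody to HA pulls down ribosomes of cells with Cre, with their mRNA. Rpl22 is therefore both the handle of the assay and 1 of the 82 genes measured. Each library came from 1 mouse, and mice are named by group and number, from F1 to F5. The study addressed whether loss of the receptor in astrocytes, and loss of ovarian hormones, alter the RNA of these cells.

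Cytosolic ribosomal proteins join with ribosomal RNA to form the small (40S) subunit, which decodes mRNA, and the large (60S) subunit, which joins amino acids and holds the exit tunnel for the new protein. Their mRNAs usually begin with a C and a short run of pyrimidines, the 5′ terminal oligopyrimidine (TOP) tract, through which the mTOR pathway and the protein LARP1 adjust how many of these mRNAs are on ribosomes. Their transcripts are short and abundant in most cells and have left many processed pseudogenes, intronless copies elsewhere in the genome, so short reads can match several places.

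Libraries held 16956233 to 18190968 counts. The 12 astrocyte markers averaged 9.05 to 9.38 log2 CPM (counts scaled to a common library size) in ERβ cKO (sham), 9.66 to 9.85 in WT (GDX) and 9.35 to 9.58 in WT (sham). The 12 neuron markers were also high, averaging 8.44 to 8.67 log2 CPM over all libraries. The libraries therefore held RNA of both cell types. Esr2 had 0 to 4 counts in ERβ cKO (sham) libraries, 0 to 7 in WT (GDX) and 0 to 4 in WT (sham), too few to show the deletion.

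The 82 genes together took a small share of each library. The share was 0.195%, 0.181%, 0.183% and 0.240% of counts in ERβ cKO (sham) mice F1, F3, F4 and F5. It was 0.202%, 0.207%, 0.195% and 0.205% in WT (GDX) mice F1 to F4. In WT (sham) mice F1, F3 and F4 it was 0.204%, 0.197% and 0.185%. ERβ cKO (sham) F5 stood above every other library and its group mates F3 and F4 were the lowest of all, so the spread within this group covered both others. The group means were 0.200% ± 0.0273 in ERβ cKO (sham), 0.202% ± 0.00498 in WT (GDX) and 0.196% ± 0.00978 in WT (sham) (SD, n = 4, 4 and 3). The 50 large subunit genes together had 1.58 to 1.77 times the counts of the 32 small subunit genes in every library. This ratio of sums is not corrected for the number of genes. ERβ cKO (sham) F5 was the highest library for 36 of the 82 genes and ERβ cKO (sham) F3 the lowest for 19. The same counts over all genes are not given here, so nothing particular to this set can be read from them.

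**Figure D1:**
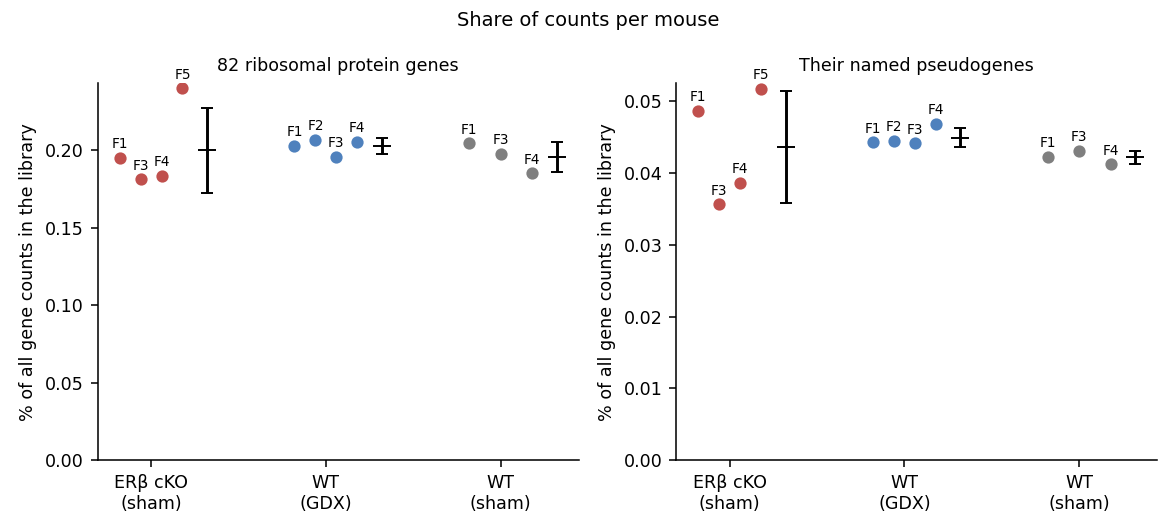
Percent of each library's counts in the 82 cytosolic ribosomal protein genes (first panel) and in pseudogenes named after them (second panel). Each dot is 1 mouse, and black bars show the group mean ± SD (n = 4, 4 and 3). The 3 groups overlap in the first panel, with ERβ cKO (sham) F5 highest at 0.240% of counts.

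The genes differed far more from each other than any of them did between groups. Levels between genes are given as mean CPM over the 11 libraries per kilobase of exon. The highest was Rps15, a protein near the decoding site of the 40S subunit, at 174 CPM per kilobase. Rpl8, which lies near the peptidyl transferase centre, stood at 141 CPM per kilobase, and Rpl4, which lines the exit tunnel, at 129 CPM per kilobase. Rplp1, an acidic protein of the stalk that recruits elongation factors, had 124 CPM per kilobase. These were the 4 highest. Rpl22 was the thirteenth, at 25.99 CPM per kilobase, close to the stalk base gene Rplp0 at 26.8 CPM per kilobase. At the low end were Rps16 (0.135), Rpl3l (0.104), Rps27 (0.060) and Rps13 (0.055 CPM per kilobase). Rpl3l encodes a muscle paralog of RPL3, but RPS13, RPS16 and RPS27 are proteins that most ribosomes carry. Rpl10l, a testis paralog of Rpl10, had 0 counts in every library, which allows up to 3 counts per library.

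**Figure D2:**
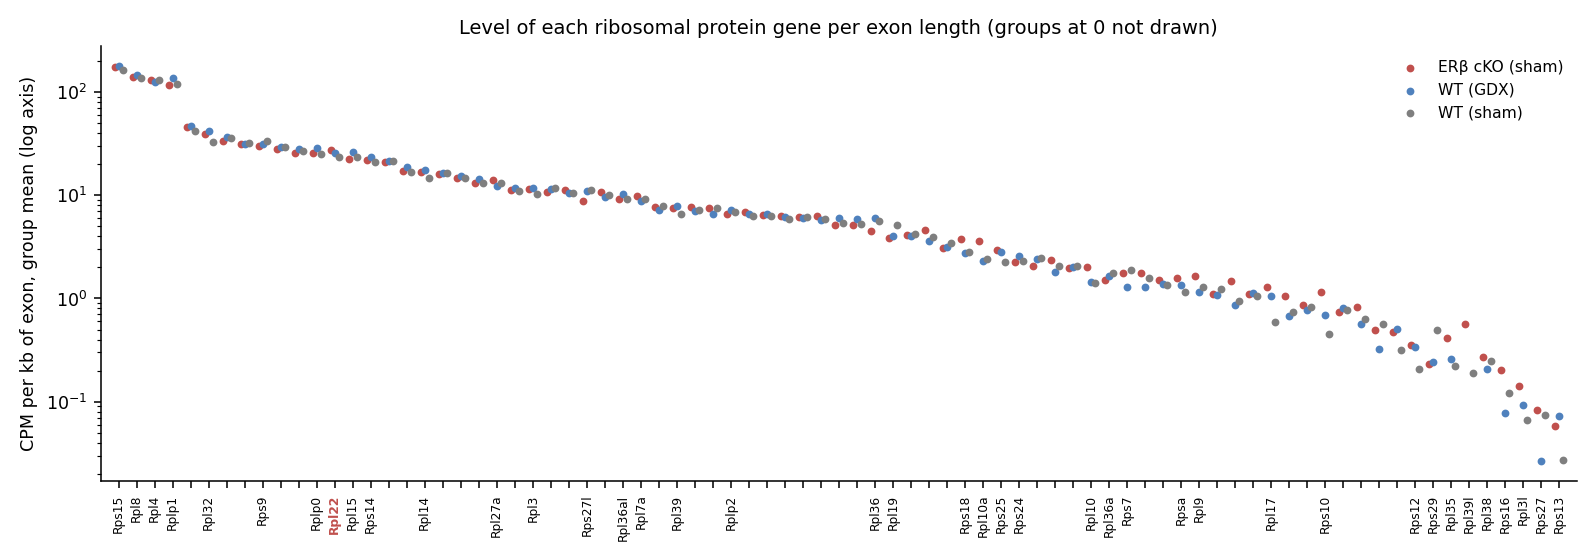
Level of each gene in CPM per kilobase of exon (log axis), genes ordered by level, with 1 point per group mean (ERβ cKO (sham), WT (GDX), WT (sham)). Rpl10l, at 0, is left out, so 81 genes are drawn, and those named in the text are labelled. The 3 groups' points lie close together for the higher genes, and Rpl22 (red label) lies at 25.99 CPM per kilobase.

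Many pseudogenes had counts of their own. GENCODE M21 names 236 pseudogenes in the table after one of the 82 genes, 150 of them had a count, and 55 of the 82 genes had at least 1 such copy. The pseudogenes summed to 84515 counts over the 11 libraries, against 386034 for the genes themselves, and the 5 highest held 53.5% of the pseudogene counts. For 18 genes the copies summed to more counts than the gene. Rps13 had 29 counts against 1676 in its copies, and Rps16 had 33 against 2482. Rpl38, a small 60S protein, had 25 counts against 4538. Rpl9, Rpl10a, Rpl14 and Rpl3 showed the same at higher levels, with 816 against 8394, 1325 against 6041, 5270 against 15620 and 6915 against 12597 counts. The pseudogene share of a library was 0.0356% to 0.0517% over the 11 libraries.

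**Figure D3:**
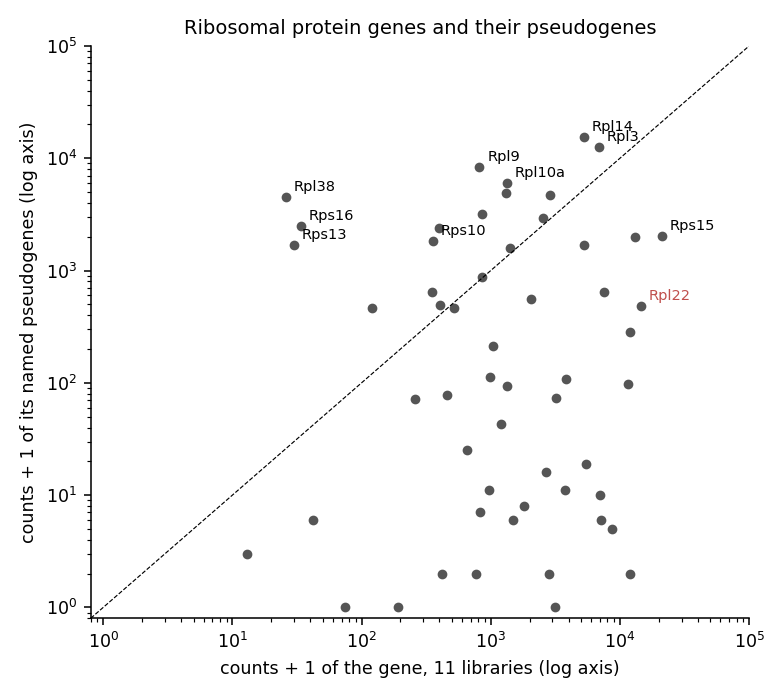
Counts of each gene (horizontal axis) against the summed counts of the pseudogenes named after it (vertical axis), over all 11 libraries, both as count + 1 on log axes. Each point is 1 of the 55 genes with a named pseudogene, and the dashed line marks equal counts. The 18 genes above the line, Rps13, Rps16 and Rpl38 among them, had fewer counts than their named copies.

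Reads were 50 bases long, so each 50 base window of 1 annotated mRNA per gene was compared with all other annotated transcripts. That mRNA need not be the form expressed here. Of the 960 windows of Rpl14, a 60S protein, 473 occur unchanged in Rpl14-ps1. Of the windows of Rpl3, a core protein near the peptidyl transferase centre, 1061 of 1302 occur in Rpl3-ps1. Rpl9 shares 593 of 689 windows with Rpl9-ps6, which the annotation lists as protein coding, and Rpl10a shares 599 of 680 with Rpl10a-ps1. Rpl22 stood at the other end. Of its 2002 windows, 1813 lay within 1 exon and matched no other gene, and its copy Rpl22-ps1 had 481 counts against 14623 for Rpl22.

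Windows across exon junctions show how complete the copies are. The 4 junctions of Rpl14 within its coding sequence are printed 5′ to 3′ from the GENCODE M21 transcript (gene at chr9:120571444-120574654, plus strand, GRCm38), with the last base of one exon and the first base of the next in capitals. All 4 occur whole in Rpl14-ps1, where the 2 bases lie side by side in the genome.
Rpl14 exons 2 and 3: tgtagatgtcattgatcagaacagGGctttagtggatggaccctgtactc
Rpl14 exons 3 and 4: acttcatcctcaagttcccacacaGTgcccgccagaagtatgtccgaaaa
Rpl14 exons 4 and 5: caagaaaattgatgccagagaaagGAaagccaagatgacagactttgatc
Rpl14 exons 5 and 6: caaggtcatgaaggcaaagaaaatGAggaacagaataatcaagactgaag
Such a window matches the pseudogene as 1 stretch but the gene only as 2. The junction of exons 4 and 5 of Rpl9 is shown for contrast, since it does not occur whole in Rpl9-ps6.
Rpl9 exons 4 and 5: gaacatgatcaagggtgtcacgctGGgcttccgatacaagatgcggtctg
How reads over junctions or with several matches were counted is not given in the sources used here, so counts of such genes are uncertain. Mean CPM was higher in genes with more windows that lie within 1 exon and match no other gene. The 13 genes with at least 1 but under 100 such windows had a median of 4.25 CPM, the 24 with at least 100 but under 300 had 11.2 CPM, and the 44 with 300 or more had 14.5 CPM. Across the 82 genes, which share libraries and are not independent, Spearman's rho was 0.36, and it was 0.35 for mRNA length. With CPM per kilobase of exon, rho was 0.24 for the percent of such windows and -0.31 for the percent of windows shared with another gene. Windows do not order single genes. Rps16 had 618 such windows but 33 counts over the 11 libraries, and Rps15 had 211 windows but a mean of 110 CPM.

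The start of these genes was examined for the pyrimidine runs that TOP mRNAs begin with. RefSeq (GRCm38.p6) gave the sequence around the start for 62 of the 82 genes. A run of 8 or more C or T touching the 30 bases before to 31 after the start was found on the coding strand in 41 of the 62, or 66.1%, against 27.5% of 27025 genes. On the other strand the share was 19.4% of the 62 genes against 30.4% of all genes. The longest run had a median of 9 bases in the 62 genes and 6 in all genes. The windows below, 5′ to 3′ on the coding strand with the longest run touching that stretch in capitals, show the 3 longest runs, the genes the comparisons turn on, and 1 gene with a short run.
Rpl7a, chr2:26910788-26910817, plus strand: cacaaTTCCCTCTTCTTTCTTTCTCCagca
Rpl27a, chr7:109519186-109519215, plus strand: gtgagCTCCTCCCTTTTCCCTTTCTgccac
Rpl35, chr2:39005115-39005144, minus strand: gccccgCCCTTTCCTCTTTCTCTCgaacca
Rpl15, chr14:18270968-18270997, minus strand: gagaaagCCTTCTTCCTTTCCTCTggcggc
Rps10, chr17:27635227-27635256, minus strand: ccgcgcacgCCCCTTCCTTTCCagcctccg
Rpl22, chr4:152325679-152325708, plus strand: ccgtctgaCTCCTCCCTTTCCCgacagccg
Rps16, chr7:28350665-28350694, plus strand: gccgtaaagcccgCTTCTgtcgtgacgtag
The run of Rpl7a was 21 bases long, that of Rpl27a 20 and that of Rpl35 18, against 5 in Rps16. Rps10 had a run of 13 bases. The run of Rpl22, 14 bases, began 39 bases before the RefSeq start. A run is a match of letters and was not tested for use in these cells.

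Rpl22 (ENSMUSG00000028936, chr4:152325742-152334071, plus strand, GRCm38) had 1090 to 1634 counts in a library. It was measured at 86.9, 71.9, 65.0 and 92.8 CPM in ERβ cKO (sham) mice F1, F3, F4 and F5. It had 74.2, 77.2, 82.1 and 75.7 CPM in WT (GDX) mice F1 to F4, and 69.3, 72.7 and 63.5 CPM in WT (sham) mice F1, F3 and F4. ERβ cKO (sham) had both the highest library and one close to the lowest, whereas all 4 WT (GDX) libraries were above all 3 WT (sham) libraries. The means were 79.2 ± 12.9 CPM in ERβ cKO (sham), 77.3 ± 3.42 in WT (GDX) and 68.5 ± 4.63 in WT (sham) (SD). In edgeR's quasi-likelihood test with Benjamini-Hochberg adjustment over all genes, the log2 fold change was 0.21 (SE 0.14, adjusted p = 0.950) for ERβ cKO (sham) against WT (sham) and 0.16 (SE 0.09, adjusted p = 0.729) for WT (GDX) against WT (sham). It was 0.04 (SE 0.11, adjusted p = 0.891) for ERβ cKO (sham) against WT (GDX) by the same edgeR test. None of the 3 passed an adjusted p of 0.1, the threshold used throughout.

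Set beside the other genes, Rpl22 took 4.56%, 4.04%, 3.53% and 4.02% of the counts of the 82 genes in ERβ cKO (sham) mice F1, F3, F4 and F5. It took 3.62%, 3.66%, 4.07% and 3.60% in WT (GDX) mice F1 to F4, and 3.38%, 3.71% and 3.48% in WT (sham) mice F1, F3 and F4. These shares overlapped between all groups. Ordered by log2 fold change, Rpl22 was number 20 of 80 genes from the top in ERβ cKO (sham) against WT (sham), 23 of 79 in WT (GDX) against WT (sham) and 30 of 79 in ERβ cKO (sham) against WT (GDX). This order takes no account of SE, and some of the genes at its ends had few counts. Rpl22 was thus never at an end by fold change alone. Its paralog Rpl22l1, outside the 82, had a log2 fold change of 0.00 (SE 0.20), 0.18 (SE 0.16) and -0.19 (SE 0.15) in the same 3 comparisons.

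**Figure D4:**
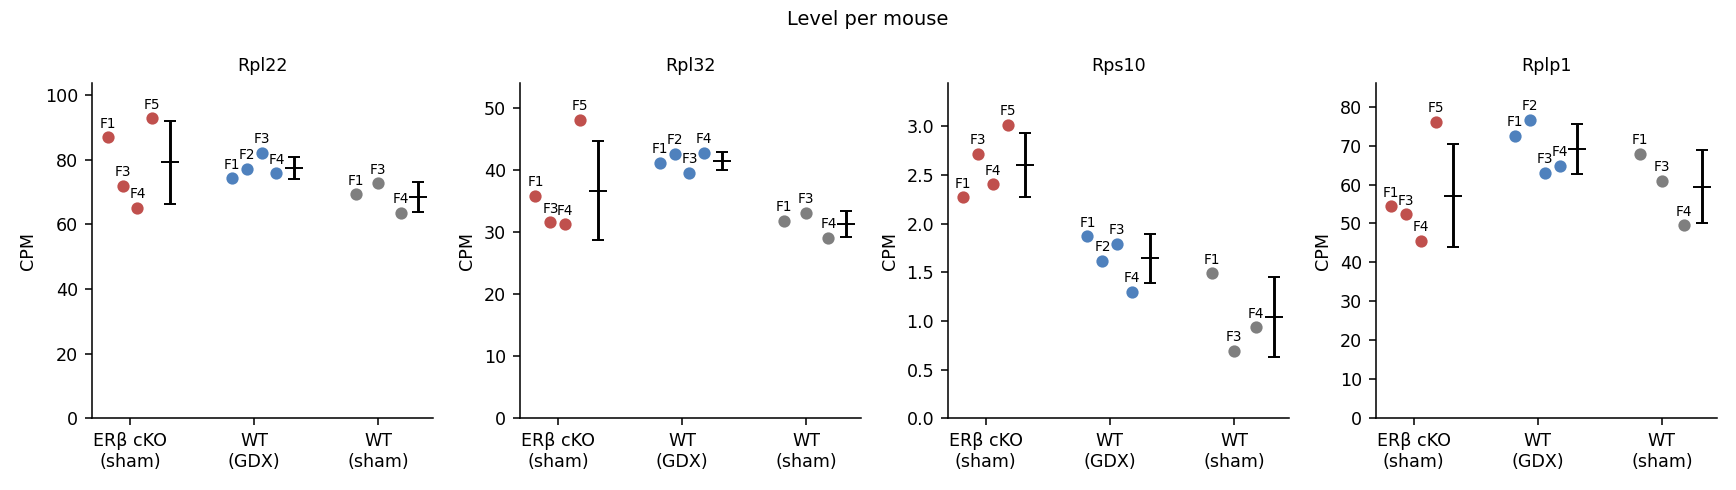
CPM of Rpl22, Rpl32, Rps10 and Rplp1 in each of the 11 mice, grouped as ERβ cKO (sham), WT (GDX) and WT (sham). Black bars show the mean ± SD (n = 4, 4 and 3). All 4 WT (GDX) mice lie above all 3 WT (sham) mice for Rpl22 and Rpl32, and Rps10 is highest in ERβ cKO (sham).

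In the ERβ cKO (sham) astrocytes, compared with WT (sham), none of the 80 ribosomal protein genes tested was called changed. Over all 19938 genes tested, 0.0301% were called. Rpl10l and Rps27 had too few counts to be tested. DESeq2 called 0 of 77, against 0.283% of all genes, and edgeR's likelihood ratio test 0 of 80, against 0.321%. At an unadjusted p under 0.05, edgeR gave 2 of 80, Rps10 and Rpl17, both higher in ERβ cKO (sham), or 2.5% against 5.33% of all genes. The median log2 fold change was 0.04, against 0.00 over all genes tested. It was 0.08 for the large subunit and -0.03 for the small subunit. A total of 45 of the 80 values were above 0, or 56.2%, against 50.8% of all genes. The log2 fold change was within 0.25 of 0 in 57 genes and within 0.5 in 67.

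Rps10 encodes a protein of the 40S head at the mRNA entry. It had 2.27, 2.72, 2.40 and 3.01 CPM in ERβ cKO (sham) mice F1, F3, F4 and F5, against 1.49, 0.694 and 0.933 CPM in WT (sham) mice F1, F3 and F4. The groups did not overlap, at 12 to 53 counts per library. The log2 fold change was 1.32 (SE 0.40, edgeR adjusted p = 0.618). Rps10 overlaps Gm15420 on the opposite strand. Of its 838 windows, 376 occur in another gene, 343 of them in Rps10-ps2, whose counts were not analysed here, and 224 in Rps10-ps1. The pseudogenes named after Rps10 that are in the count table held 1837 counts over the 11 libraries, against 354 for Rps10. Summed with these, the log2 fold change of Rps10 was 0.25 (SE 0.19, edgeR adjusted p = 0.969). How reads were assigned between gene and copy was not tested.

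Rpl17, whose protein lines the exit tunnel, had 1.94, 2.02, 1.40 and 1.42 CPM in ERβ cKO (sham) mice F1, F3, F4 and F5, against 0.883, 0.405 and 1.05 CPM in WT (sham) mice F1, F3 and F4. These groups too did not overlap, with a log2 fold change of 1.12 (SE 0.49, edgeR adjusted p = 0.904). Rpl3 was the only other gene higher in every ERβ cKO (sham) library, with a log2 fold change of 0.12 (SE 0.13), and Rps29 was lower in every one. Rps29 had 2 to 4 counts in ERβ cKO (sham) libraries, against 4 to 8 in WT (sham), with 1 library of each group at 4. The count of higher genes without overlap, 3 of 80, was 3.75%, against 3.28% of all genes, and that of lower ones, 1 of 80, was 1.25% against 3.06%. The largest positive value, 1.55 (SE 1.27) for Rpl39l, a testis-enriched paralog of Rpl39, rested on 27 counts in ERβ cKO (sham) F1. After Rps29 the lowest value was -0.45 (SE 0.28, edgeR adjusted p = 0.949) for Rpl19, near the tunnel exit, at 3.84 ± 0.991 CPM in ERβ cKO (sham) and 5.25 ± 0.961 in WT (sham).

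In the WT (GDX) astrocytes, compared with the same WT (sham) libraries, none of 79 ribosomal protein genes was called, against 0.437% of 19695 genes. Unadjusted p values under 0.05 were found for Rpl32, Rpl14 and Rplp0, all higher in WT (GDX), or 3.8% of genes against 7.98% of all genes. DESeq2 called 1, Rpl32, against 1.09% of all genes, and the likelihood ratio test of edgeR called 0, against 0.96%. The median log2 fold change was 0.04, against -0.01 over all genes, and 45 of 79 values, 57%, were above 0, against 48.6% of all genes. Both comparisons use the same 3 control libraries, so their values are not independent.

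Rpl32, a 60S protein (chr6:115805505-115808747, minus strand, GRCm38), had 41.2, 42.6, 39.6 and 42.7 CPM in WT (GDX) mice F1 to F4, against 31.8, 33.1 and 29.0 CPM in WT (sham) mice F1, F3 and F4. The lowest WT (GDX) library was well above the highest WT (sham) library. The means were 41.5 ± 1.47 CPM in WT (GDX) and 31.3 ± 2.10 in WT (sham), a log2 fold change of 0.39 (SE 0.11, edgeR adjusted p = 0.174). The pseudogene named Rpl32-ps held 5 counts, and Rpl32 overlaps Cand2 on the other strand. Of the 857 windows of Rpl32, 139 occur in 1 or more of 9 other genes, and counts of copies under other names were not summed. Over the alternatives tried the adjusted p was 0.0698 to 0.574, and it passed the threshold with DESeq2 (0.0698) and in edgeR without a filter on low counts (0.0966). In ERβ cKO (sham) Rpl32 had 35.8, 31.6, 31.2 and 48.1 CPM, a range that covered all 4 WT (GDX) libraries and 2 of the 3 WT (sham) libraries.

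Rplp0, the base of the stalk, had 46.4, 53.7, 45.5 and 50.3 CPM in WT (GDX) mice F1 to F4, against 43.9, 41.0 and 40.2 CPM in WT (sham) mice F1, F3 and F4. Its log2 fold change was 0.21 (SE 0.10, edgeR adjusted p = 0.622). The acidic stalk genes Rplp1 and Rplp2 had values of 0.20 (SE 0.11) and 0.09 (SE 0.16), with groups that overlapped. In all, 10 of the 79 genes were higher in every WT (GDX) library than in every WT (sham) library, or 12.7%, against 5.87% of all genes. They were Rpl32, Rplp0, Rpl22, Rps14, Rpl3, Rpl36al, Rpl39, Rps25, Rps24 and Rps12. Rps14, of the 40S platform, averaged 58.1 ± 1.28 CPM in WT (GDX) and 50.2 ± 5.67 in WT (sham). Rpl39, of the exit tunnel, averaged 11.5 ± 0.456 CPM in WT (GDX) and 9.47 ± 1.60 in WT (sham). None of the 10 passed the adjusted threshold, and the exact two-sided permutation test, whose smallest p for 4 mice against 3 is 0.0571, cannot pass 0.05. One gene, Rps7, was lower in every WT (GDX) library, or 1.27% against 2.97% of all genes. It averaged 2.67 ± 0.589 CPM in WT (GDX) and 3.76 ± 0.480 in WT (sham), a log2 fold change of -0.51 (SE 0.29, edgeR adjusted p = 0.710).

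Cell type markers differed in both comparisons against WT (sham). Of 10 choroid plexus markers, 9 were tested in each. edgeR called 3 lower in ERβ cKO (sham) and 5 lower in WT (GDX). Their summed level was 7.33 to 9.94 CPM in ERβ cKO (sham) and 5.71 to 8.53 in WT (GDX), against 36.0 to 170 CPM in WT (sham), with 2 to 4 markers at 0 counts in ERβ cKO (sham) libraries, 1 to 4 in WT (GDX) and 0 in WT (sham). The 10 ependymal markers summed to 25.7 to 51.1 CPM in ERβ cKO (sham) and 25.9 to 50.3 in WT (GDX), against 61.8 to 68.0 CPM in WT (sham), with 1 called lower in WT (GDX). In ERβ cKO (sham) against WT (sham), all 10 endothelial and pericyte markers had values above 0 (median log2 fold change 0.96), with 0 called and 5 at an unadjusted p under 0.05, at 171 to 227 CPM in sum in ERβ cKO (sham), against 71.4 to 174 CPM in WT (sham). All 5 markers of oligodendrocyte precursors were above 0 there (median 1.01), with 0 called and 2 at an unadjusted p under 0.05, at 47.7 to 125 CPM in ERβ cKO (sham), against 32.5 to 52.5 CPM in WT (sham). All 12 astrocyte markers had values below 0 (median -0.18), with 0 called and 3 at an unadjusted p under 0.05, at 17240 to 21018 CPM in sum in ERβ cKO (sham), against 19589 to 22941 CPM in WT (sham). In WT (GDX) against WT (sham), 11 of 12 astrocyte markers were above 0 (median 0.22), with 1 called and 6 at an unadjusted p under 0.05, at 23162 to 28308 CPM in sum in WT (GDX), against 19589 to 22941 CPM in WT (sham). No endothelial, precursor or astrocyte marker was at 0 counts in any library. The part of these lists in the ribosomal protein values was not tested. Fewer cells of a type and less RNA per cell cannot be told apart in such libraries.

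Between the ERβ cKO (sham) and WT (GDX) astrocytes, the comparison with the most calls, none of 79 ribosomal protein genes was called either, while 4.15% of 19759 genes were. At an unadjusted p under 0.05 there were 4, or 5.06% against 17.2% of all genes. Rps10, Rpl10a and Rps18 were higher in ERβ cKO (sham), and Rpl15 was lower. DESeq2 called 0 of 72, against 10% of all genes, and the likelihood ratio test of edgeR 0 of 79, against 6.7%. The median log2 fold change was -0.08, against 0.00 over all genes, with -0.06 for the large and -0.09 for the small subunit. A total of 33 of 79 values were above 0, or 41.8%, against 50.2% of all genes, and 54 of 79 were within 0.25 of 0.

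**Figure D5:**
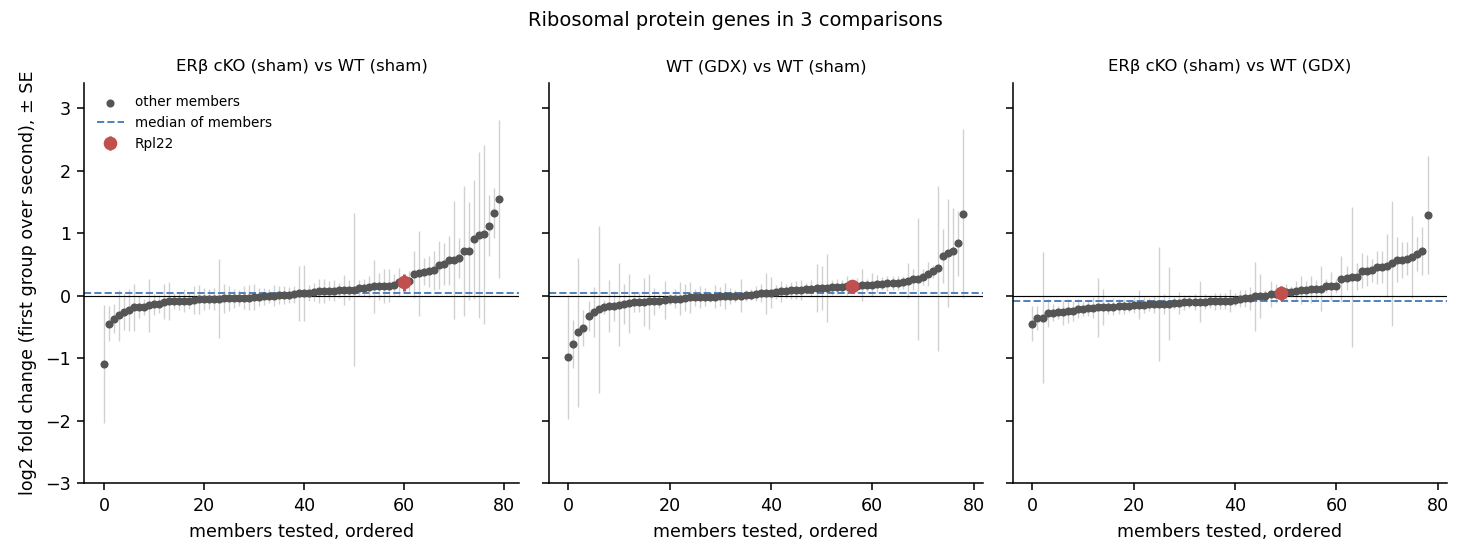
Log2 fold change ± SE (edgeR) of each gene tested, ordered by value, in ERβ cKO (sham) vs WT (sham), WT (GDX) vs WT (sham) and ERβ cKO (sham) vs WT (GDX). The dashed line is the median of the genes, 0.04, 0.04 and -0.08, and Rpl22 is red. Wide error bars belong to genes with few counts at either end.

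Rpl15, a 60S protein, had 50.8, 58.7, 59.0 and 48.9 CPM in ERβ cKO (sham) mice F1, F3, F4 and F5, against 66.5, 59.2, 69.7 and 67.6 CPM in WT (GDX) mice F1 to F4. All 4 ERβ cKO (sham) libraries were below all WT (GDX) libraries, F4 only just below WT (GDX) F2. The log2 fold change was -0.27 (SE 0.10, edgeR adjusted p = 0.172). Rpl36, also of the 60S subunit, did not overlap either, at 1.70 ± 0.250 CPM in ERβ cKO (sham), against 2.34 ± 0.0954 in WT (GDX), with a log2 fold change of -0.45 (SE 0.28, edgeR adjusted p = 0.435). These 2 genes were 2.53% of the 79, against 5.77% of all genes that were lower without overlap. Rps10 was the 1 gene higher without overlap, or 1.27% against 4.24% of all genes, with 1.87, 1.61, 1.79 and 1.30 CPM in WT (GDX) mice F1 to F4 and a log2 fold change of 0.67 (SE 0.28, edgeR adjusted p = 0.227). Summed with its named pseudogenes in the count table the Rps10 value was -0.029 (SE 0.15, edgeR adjusted p = 0.946), with the direction turned.

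Rplp1 had 54.4, 52.3, 45.5 and 76.1 CPM in ERβ cKO (sham) mice F1, F3, F4 and F5, against 72.5, 76.6, 63.0 and 64.7 CPM in WT (GDX) mice F1 to F4. Its log2 fold change was -0.27 (SE 0.13, edgeR adjusted p = 0.307). Rps27l, a paralog of Rps27, had 6.42, 5.49, 5.92 and 10.4 CPM in the same ERβ cKO (sham) libraries, against 10.2, 8.48, 8.39 and 9.28 CPM in WT (GDX). Its log2 fold change was -0.36 (SE 0.20, edgeR adjusted p = 0.380). In both genes 3 ERβ cKO (sham) libraries were below all WT (GDX) libraries and F5 was among or above them.

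Without ERβ cKO (sham) F5, edgeR called 8 of 79 ribosomal protein genes, all lower in ERβ cKO (sham), or 10.1%, when 12.2% of 20023 genes were called. They included Rpl32 and Rplp1 of the 60S subunit and Rps9, Rps14, Rps15, Rps24 and Rps27l of the 40S subunit by name. The log2 fold change without F5 was -0.44 (SE 0.10, edgeR adjusted p = 0.00553) for Rplp1, -0.60 (SE 0.18, adjusted p = 0.0392) for Rps27l and -0.33 (SE 0.10, adjusted p = 0.0428) for Rpl32. The median of the 79 genes was then -0.17, and 54 values were below 0. The same values over all genes are not given here for this fit, so a shift of the set cannot be read from them. Without ERβ cKO (sham) F4, 1 gene was called, Rpl10a, when 6.84% of all genes were. This is the only comparison in which leaving out 1 library led to calls among these genes. F5 had the highest share of counts in the 82 genes. It also stood above its group mates in the 77 mitochondrial ribosomal protein genes, at 2507 CPM in sum against 2125 to 2232 CPM, and in the nuclear genes of the respiratory chain, at 9740 CPM against 7896 to 8765 CPM. Malat1, a nuclear RNA, took 0.342% of its counts, the highest of the 11 libraries. The part of these in the calls made without F5 was not tested.

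Other cell types also differed between these 2 groups. edgeR called 8 of 12 astrocyte markers lower in ERβ cKO (sham), at a summed level of 17240 to 21018 CPM, against 23162 to 28308 CPM in WT (GDX), with none at 0. Of 10 endothelial and pericyte markers, 2 were called higher in ERβ cKO (sham), at 171 to 227 CPM in sum, against 73.3 to 156 CPM in WT (GDX). In the same endothelial list F5 had 223 CPM, within the range of its group. Malat1 took 0.171% to 0.342% of counts in ERβ cKO (sham) and 0.0831% to 0.161% in WT (GDX). The part of these in the ribosomal protein values was not tested.

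The paralogs that replace a ribosomal protein in particular tissues were low. Rpl3l had 0 to 11 counts in a library and Rpl10l had 0. Rpl39l had 27, 0, 4 and 2 counts in ERβ cKO (sham) mice F1, F3, F4 and F5, 0 counts in the 4 WT (GDX) libraries, and 0, 4 and 4 counts in WT (sham). Rpl36al, a paralog of Rpl36a with wide expression, was at 12.2 ± 2.58 CPM in ERβ cKO (sham), 14.1 ± 0.334 in WT (GDX) and 12.5 ± 1.67 in WT (sham). Rpsa, which also acts as a laminin receptor, was at 4.87 ± 1.09, 4.40 ± 0.802 and 3.68 ± 1.43 CPM in the same groups. Outside the naming rule, Fau, which gives RPS30, was at 0.223 to 0.997 CPM over all libraries.

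Genes that work with the ribosome were compared in the same fits. In ERβ cKO (sham) against WT (sham), 0 of 14 elongation factors, 37 initiation factors, 21 other TOP mRNAs, 51 ribosome biogenesis genes, 31 TOP regulators and 77 mitochondrial ribosomal protein genes were called. In WT (GDX) against WT (sham), Mrpl41, of the mitochondrial large subunit, was the 1 gene of these lists called. It averaged 60.6 ± 8.98 CPM in WT (GDX) and 42.4 ± 3.25 in WT (sham) (log2 fold change 0.50, SE 0.11, edgeR adjusted p = 0.0608). In ERβ cKO (sham) against WT (GDX), Mrpl41 was again the 1 mitochondrial ribosomal gene called, lower at 42.4 ± 6.07 CPM in ERβ cKO (sham), against 60.6 ± 8.98 in WT (GDX) (-0.51, SE 0.12, edgeR adjusted p = 0.0461). The cytosolic and mitochondrial ribosomal genes had medians of -0.08 and -0.11 in this comparison.

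In the same comparison 4 of 31 TOP regulators were called higher in ERβ cKO (sham) and 1 lower, when 4.15% of all genes were called, 381 of 19759 higher and 439 lower. Their median log2 fold change was 0.09, against 0.00 over all genes. Rps6kb2, an S6 kinase, averaged 24.5 ± 4.28 CPM in ERβ cKO (sham), against 14.4 ± 3.98 in WT (GDX) (log2 fold change 0.77, SE 0.19, edgeR adjusted p = 0.0598). Larp1b, a relative of Larp1, was also higher, at 1.67 (SE 0.42, edgeR adjusted p = 0.0598). Its level was low, at 3.06 ± 1.62 CPM in ERβ cKO (sham), against 0.961 ± 0.447 in WT (GDX), and the groups overlapped. The other 2 were Eif4ebp3, a translation repressor of the 4E-BP family, and Tsc2, an inhibitor of mTORC1. Ddit4, a stress-induced inhibitor of mTORC1, was lower, at 54.1 ± 5.12 CPM in ERβ cKO (sham), against 73.5 ± 6.50 in WT (GDX) (-0.44, SE 0.10, edgeR adjusted p = 0.0431). The regulators called higher thus included an S6 kinase, a translation repressor and an inhibitor of mTORC1. Of 51 ribosome biogenesis genes, Nop56, a core protein of box C/D small nucleolar ribonucleoproteins, was the 1 called, at 49.97 ± 5.11 CPM in ERβ cKO (sham), against 35.8 ± 4.91 in WT (GDX) (0.49, SE 0.11, edgeR adjusted p = 0.0447). Elongation factors, initiation factors and the other TOP mRNAs had 0 calls there.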

How the data were processed

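Ribosome-bound RNA of 11 mice was sequenced as 50 base single-end reads from KAPA stranded libraries. The authors used bcl2fastq 2.17, FastQC and Trimmomatic on the reads and QuasR to align to mm10 and count per gene. The table was deposited by the authors as raw counts. How multiple matches, splicing and strand were handled, and the annotation release, were not given in the sources used here.

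Groups came from the labels. In each comparison a gene was removed if more than 3 samples had a count below 1. Counts were TMM-normalized and tested with edgeR 4.0.16's robust quasi-likelihood test (R 4.3.3, adjusted p under 0.1, Benjamini-Hochberg). CPM are TMM-scaled. DESeq2 1.42.0 and edgeR's likelihood ratio test were alternatives, with other scalings, other filters, a threshold of 0.05, a joint fit, sums with pseudogenes, the mouse number as block and leaving out each mouse. Exact tests used log2(CPM + 0.5). The code was tested on simulated data. Windows of 50 bases came from GENCODE M21 transcripts, and 37693 identifiers matched that annotation. For each gene 1 protein-coding transcript was used. Transcripts tagged principal came first, then those tagged basic, then the longest coding sequence, then the greatest length.

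The members and lists were chosen with earlier results of these data known. Named are Rpl22, called members, the 5 highest and lowest fold changes per comparison, the 5 highest and lowest levels, stalk genes, Rpsa, paralogs and up to 3 genes per companion list. Others, such as Rpl14, Rpl15, Rpl32, Rps18 and those in lists of calls, were named after their values were seen. Spread is between mice, 1 library each, and limits on counts of 0 cover counting error only. Some genes are not reported here.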

Additional observations from a re-analysis of the deposited data

Results flagged for a closer look

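Of 65 checks of a group of 4 libraries, 8 had 1 library far from the other 3 by Dixon's criterion. Its rate of about 1 in 20 holds for independent, normally distributed values. Many of these genes were chosen from the same data for extreme fold changes or levels, and some had few counts. That rate therefore cannot be set against the number flagged. Rpl36 was at 1.33 CPM in ERβ cKO (sham) F3, against 1.82 to 1.84 CPM in its group mates. Rpl10a was at 7.36 CPM in WT (GDX) F1, against 5.09 to 5.44 CPM in the others. Rps7 was at 1.79 CPM in WT (GDX) F3, with 2.89 to 3.06 CPM in the others. Rps12 was at 0.112 CPM in ERβ cKO (sham) F4, with 0.830 to 0.925 CPM in the others. Rpl39l was at 1.49 CPM in ERβ cKO (sham) F1, with 0 to 0.223 CPM in the others. Rps27 was at 0.113 CPM, 2 counts, in WT (GDX) F4 and at 0 in the others. The named pseudogenes took 0.0469% of counts in WT (GDX) F4, with 0.0441% to 0.0444% in the others. Rpl22 took 4.07% of the ribosomal protein counts in WT (GDX) F3, with 3.60% to 3.66% in the others. No cause was tested.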

How the results depend on the processing

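The count of ribosomal protein genes called stayed at 0 under every alternative in ERβ cKO (sham) against WT (sham). In WT (GDX) against WT (sham) it was 1 without the filter (1.2% of all genes called) and 1 with DESeq2, Rpl32 both times, and 0 otherwise. In ERβ cKO (sham) against WT (GDX) it was 1 without the filter (Rpl39l, with 3.88% of all genes). Leaving out single mice gave 0 to 8 genes, 8 without ERβ cKO (sham) F5, and Rpl22 values of -0.045 to 0.13. The labels do not say whether mouse numbers pair the samples. Correlations of same-numbered mice were -0.22 to 0.15 over all comparisons, and 0.022 to 0.15 in ERβ cKO (sham) against WT (GDX). No correlations of differently numbered mice are given here to set beside them, so these values cannot decide it. With the mouse number as a replicate block, which also drops mice without a partner, 10 genes were called (1 higher) with 16% of all genes, and the Rpl22 value was -0.056 (adjusted p = 0.813, edgeR). The same 6 libraries without the block, chosen after seeing the data, gave 4 genes with 8.87% of all genes, and -0.048 for Rpl22 (adjusted p = 0.860, edgeR). Rps10 summed with its named pseudogenes in the count table gave -0.029 there. The cause of these changes was not tested. Summed with the named pseudogenes, the share of counts was 0.243% in ERβ cKO (sham), 0.247% in WT (GDX) and 0.238% in WT (sham). Genes under about 50 counts per library, Rps10, Rpl17 and Rpl39l among them, had SEs of 0.28 to 1.27, so only large differences could be seen.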
